A study of Mus musculus with 12 samples.

Results

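The amygdala KO array was compared with the hypothalamus KO array: 2 arrays of the 12 in the series, which were taken because they hold the 2 regions at 1 genotype. KO mice lacked the cytokine interleukin-18 (IL-18), and WT mice were their littermates from crosses of IL-18 knockout and C57BL/6J mice. Per the labels every mouse was a male of 12 weeks and C57BL/6 strain, and every array held equal amounts of RNA from 5 mice, of which 400 ng were labelled with Cy3. Tissue came from coronal slices of 1 mm, and the slice that began 1.5 mm and ended 2.5 mm behind bregma gave amygdala, hypothalamus and hippocampus alike. The hypothalamus WT array, a second hypothalamus pool that differs in genotype, served as a check on each difference. With 1 pooled array a side there was no replicate and no test. Differences were read by a size of 2-fold (1 unit in log2), and precision is limited by the number of arrays.

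The hypothalamus holds many small groups of neurons, each making its own peptide hormone or neuropeptide, and it borders the third ventricle and the pituitary stalk. The amygdala lies in the telencephalon. Its basolateral nuclei hold glutamatergic neurons akin to cortical pyramidal cells, and its central and medial nuclei hold mainly GABA neurons related to those of the striatum and preoptic area. In such pooled tissue, fewer cells of a type and less RNA per cell cannot be told apart.

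Each level is the log2 of a signal over its array's 75th percentile and is read for 1 probe across arrays, never between genes. Of 33335 genes and transcripts on the array, 25461 passed the software's flag for signal well above background on either KO array. Repeated spots of a probe had a median SD of 0.072 in log2 on both KO arrays. Il18 itself, on the probe used, read between -4.35 and -3.12 on the 6 KO arrays and between 0.57 and 1.12 on the 6 WT arrays, so every KO array read below every WT array. The difference between amygdala KO and hypothalamus KO for Il18 was -0.57.

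The region labels were read against markers, from lists chosen with earlier results of these data known. Of 22 amygdala markers measured on the KO pair, 6 read highest on amygdala KO of the 12 arrays. For 14 that array was among the 3 highest, and its lowest place was 10. Those in first place include Cyp26b1, a retinoic acid-degrading enzyme (3.28), Lypd1 (4.70) and Otof (-0.31), while Dkkl1 was in place 3, Fezf2 in place 5 and Zfhx3 in place 6. Slc17a6, the vesicular glutamate transporter of subcortical neurons, read 1.79 on amygdala KO and 1.98 and 1.86 on the hypothalamus KO and WT arrays, while the 8 arrays of the other 4 regions lay between -2.62 and -0.25. The difference between amygdala KO and hypothalamus KO on this Slc17a6 probe was -0.19. A second, dimmer Slc17a6 probe, well above background on both KO arrays, gave -0.6. Slc17a6 was thus lower on amygdala KO by less than 2-fold on either probe, and by an amount that depended on the probe. Over 22586 genes, hypothalamus KO was the array most like amygdala KO (Pearson r = 0.986 across genes, which are not independent), followed by hypothalamus WT at 0.984. These genes were well above background on the amygdala and hypothalamus arrays of both genotypes. No signal was required on the other 8 arrays, so the choice of genes may favour the hypothalamus arrays in this order. The amygdala WT array went against its label: it read 6.02 for Pmch and 5.77 for Hcrt, peptides of the lateral hypothalamus, against 5.92 and 5.48 on hypothalamus WT. From hypothalamus WT it was 2-fold apart in 475 of 25617 genes and transcripts (1.85%), so it was used for no regional result.

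Most of what separated amygdala KO from hypothalamus KO was lower on the amygdala array. Among named genes, hypothalamic neuropeptides, transcription factors of hypothalamic development and genes of histamine and dopamine neurons led the falls. Pituitary hormones and genes of motile cilia were also among them. Pyramidal neuron and telencephalic genes were higher on the amygdala array, by smaller amounts. Of the 25461 genes and transcripts, 1447 (5.68%) were at least 2-fold apart, 207 higher (0.813%) and 1240 lower (4.87%) on amygdala KO. At 4-fold, 50 were higher (0.196%) and 144 lower (0.566%). Higher genes made up 14.3% of those apart. That split moved with the scaling of the arrays: centring on the array median gave 458 higher and 635 lower (41.9% higher), and quantile normalization 290 and 603 (32.5%). With the 75th percentile, 351 of the 1240 lower and 92 of the 207 higher were named genes. The rest were unnamed transcripts, which the gene lists do not cover. Of 14317 named genes measured, 3.1% were 2-fold apart. The median of all measured genes was -0.079 with the 75th percentile and 0.158 with the array median, so small differences have no settled sign.

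Against hypothalamus WT, 1906 of 25706 genes and transcripts (7.41%) were 2-fold apart, 204 higher (0.794%) and 1702 lower (6.62%). The 2 hypothalamus arrays were 2-fold apart from each other in 406 of 25887 (1.57%), with a median absolute deviation of 0.113 against 0.261 between amygdala KO and hypothalamus KO. Both regional comparisons share the amygdala array. A difference was called checked when it reached 2-fold in the same direction against both hypothalamus arrays. This held for 122 of the 207 higher genes (0.479% of all measured) and 954 of the 1240 lower ones (3.75%). Among the 14317 named genes measured, 51 higher and 226 lower ones were checked. Of the 1447, 371 did not reach it, and 32 of those had the opposite sign against hypothalamus WT.

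Dim probes carried much of the count. Among genes well above background on both KO arrays, 463 were lower and 82 higher of the 6459 with a mean level below -3, but 43 lower and 4 higher of the 6292 with a mean level above 1. The median difference was -0.22 among the former and 0.07 among the latter.

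Neuropeptide genes of the hypothalamus had the largest differences. Of 20 measured, 17 were lower on amygdala KO and 3 higher, with a median of -1.44 against hypothalamus KO and -1.25 against hypothalamus WT. Of these, 14 were at least 2-fold lower, 12 of them against both hypothalamus arrays (4.87% of all genes were lower against hypothalamus KO and 3.75% against both). Npvf and Rln3 were not well above background on either KO array.

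Pmch, the precursor of melanin-concentrating hormone made in the lateral hypothalamus, read -1.63 on amygdala KO, 5.93 on hypothalamus KO and 5.92 on hypothalamus WT. The difference of -7.56 is 189-fold, with a scanner spot error of 0.21, and the 2 hypothalamus pools lay within 0.01 of each other. Hcrt, the precursor of the orexins that promote wakefulness, read -1.30 on amygdala KO and 5.36 and 5.48 on the hypothalamus KO and WT arrays, a 101-fold difference. For Hcrt the amygdala KO level lay among the 8 arrays of olfactory bulb, prefrontal cortex, striatum and hippocampus, which ran from -1.75 to -0.35. For Pmch it lay between hippocampus WT (-1.67) and hippocampus KO (-1.09). It was above every olfactory bulb, prefrontal cortex and striatum array for Pmch (-5.72 to -3.80).

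Oxt and Avp encode oxytocin and vasopressin, which neurons of the paraventricular and supraoptic nuclei send to the posterior pituitary. Oxt read -1.45 on amygdala KO, 5.35 on hypothalamus KO and 4.37 on hypothalamus WT, 112-fold below the hypothalamus KO pool. Avp read 0.12, 5.08 and 4.46 on the same arrays, 31.1-fold below it. The 2 hypothalamus pools differed by 0.98 for Oxt and 0.62 for Avp, far less than either differed from amygdala KO. Avp on amygdala KO nevertheless exceeded every array of the other 4 regions, which lay between -4.40 and -2.17, whereas Oxt lay within theirs (-2.55 to -1.09). The Avp probe lies in array rows where higher readings on amygdala KO crowd, described with the largest rises. Vasopressin is also known to be made by cells of the medial amygdala.

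The 150 bases that precede the RefSeq start of each of these 4 genes (assembly GRCm38.p6) are shown because the genes move together. Capitals mark TATAAA, the core of the TATA box, on either strand (TTTATA on the other).
Pmch, chr10:88090922-88091071, plus strand: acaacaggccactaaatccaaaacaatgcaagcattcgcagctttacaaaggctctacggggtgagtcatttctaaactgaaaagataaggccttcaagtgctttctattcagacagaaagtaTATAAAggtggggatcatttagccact
Hcrt, chr11:100762932-100763081, minus strand: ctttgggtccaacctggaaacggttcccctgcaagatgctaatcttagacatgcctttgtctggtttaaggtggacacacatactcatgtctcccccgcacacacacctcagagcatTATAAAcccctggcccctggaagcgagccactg
Oxt, chr2:130576019-130576168, plus strand: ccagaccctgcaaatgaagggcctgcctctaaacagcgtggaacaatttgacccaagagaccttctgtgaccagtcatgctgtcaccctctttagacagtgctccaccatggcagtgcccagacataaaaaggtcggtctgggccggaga
Avp, chr2:130582589-130582738, minus strand: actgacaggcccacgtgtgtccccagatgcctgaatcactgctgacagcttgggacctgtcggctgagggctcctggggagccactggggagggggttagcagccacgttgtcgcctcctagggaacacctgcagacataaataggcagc
Pmch and Hcrt hold the exact letters shortly before the start, and Oxt and Avp do not hold them in this window. Oxt and Avp lie near each other on chromosome 2, on opposite strands. Of 22 starts of 20 hypothalamic peptide genes in the table, 9 held TATAAA on either strand (40.9%), against 7.57% of all 32851 starts with a window of the same length. These 20 are not the 20 measured peptides. The genes with the letters include Npvf and Rln3, not well above background on either KO array, and Vip, which read higher on amygdala KO. A match of letters is a description and shows no binding.

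Peptides of the arcuate nucleus and of other hypothalamic cells followed at smaller size. Agrp, the appetite-promoting antagonist of melanocortin receptors, read -3.97 on amygdala KO, -0.81 on hypothalamus KO and -0.58 on hypothalamus WT. Ghrh, which releases growth hormone, read -1.01, 1.39 and 1.14. Gnrh1, which releases the gonadotropins, read -4.09, -1.52 and -2.13. Trh, which releases thyrotropin, read -0.93, 1.18 and 0.49. All 4 were at least 2-fold lower against both hypothalamus arrays, and the amygdala KO level of each except Gnrh1 lay within the range of the other 4 regions.

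Another set of peptide genes was lower than on the hypothalamus arrays and still high for a region outside the hypothalamus. Pomc, the precursor of melanocortins and corticotropin, read 3.62 on amygdala KO, 5.04 on hypothalamus KO and 4.87 on hypothalamus WT, while the other 4 regions reached at most 1.13. Cartpt, a satiety peptide, read 2.0, 3.45 and 3.21, with at most 0.66 in the other regions. Gal, the precursor of galanin, read 1.33, 3.18 and 2.99. The amygdala KO array thus stood between the hypothalamus pools and the other regions for Pomc and Cartpt, while Gal lay within the range of the other regions, which reached 1.52 in olfactory bulb. Adcyap1, the precursor of the peptide PACAP, read 1.75, 2.81 and 2.62, a difference of -1.06 against hypothalamus KO and -0.88 against hypothalamus WT.

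The 3 hypothalamic peptides that read higher on amygdala KO were Vip (0.22), Ucn3 (1.21) and Qrfp (1.99). Ucn3, a stress peptide of the corticotropin-releasing factor family, was only 0.25 higher than on hypothalamus WT, so its size depends on which hypothalamus array is used. Qrfp, an RF-amide peptide, kept 1.39 against hypothalamus WT. Its probe lies in a stretch of array rows where higher readings crowd, described with the largest rises.

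**Figure D1:**
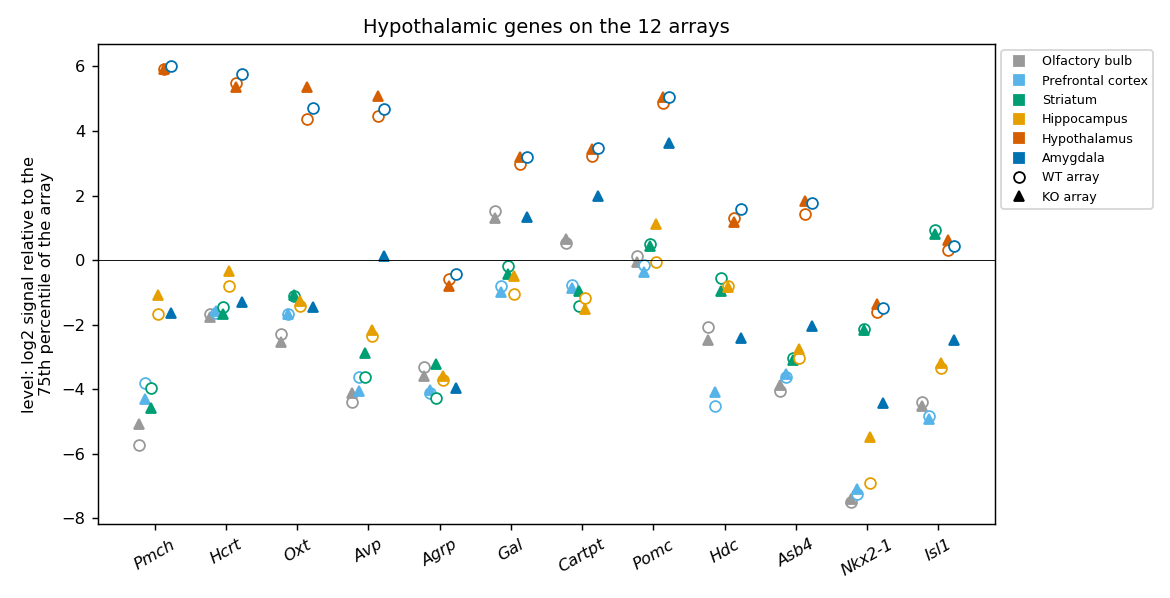
Level of 12 hypothalamic genes (log2 of the signal over its array's 75th percentile) on the 12 arrays, 1 point per array, coloured by region, with open circles for WT and triangles for KO; there are no error bars because each point is 1 pooled array. The hypothalamus arrays and the array labelled amygdala WT sit together at the top, for example near 6 for Pmch, while amygdala KO reads -1.63 for Pmch and stands between the groups for Pomc at 3.62.

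Neuropeptides that are made across the forebrain differed by less than 2-fold from hypothalamus KO. None of 17 was 2-fold apart, a count near the shares of all genes (5.68%) and of named genes (3.1%). Their differences ran from -0.97 for Nmb to 0.85 for Cck. The median was 0.14 against hypothalamus KO and -0.05 against hypothalamus WT, where Ucn, a peptide of the urocortin family, was past 2-fold (1.13 higher). Sst, the somatostatin gene of inhibitory neurons, read 5.77 on amygdala KO, 5.34 on hypothalamus KO and 5.43 on hypothalamus WT. Penk, the precursor of enkephalins, read 6.26, 6.00 and 6.14. Cck, the cholecystokinin gene of cortical and amygdalar neurons, read 6.03, 5.18 and 5.35. Pdyn, the dynorphin precursor, read 3.46, 4.41 and 4.22. Of 19 genes for the dense-core granules that store peptides, 1 was 2-fold lower (4.87% of all genes, 351 of 14317 named genes). It was Pcsk1, a prohormone convertase, at -1.11 against hypothalamus KO and -0.51 against hypothalamus WT, and a second, dimmer probe gave -0.18.

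Of 36 neuropeptide receptors measured, 4 were at least 2-fold lower, 2 of them against both hypothalamus arrays, and none was 2-fold higher. Over all genes and transcripts 4.87% and 3.75% were lower in these ways. Of 14317 named genes, the kind that the lists hold, 351 and 226 were. The receptor shares lie above these, but rest on only 4 and 2 genes. The 2 were Avpr1a, a vasopressin receptor, which read -4.84 on amygdala KO, -2.48 on hypothalamus KO and -2.80 on hypothalamus WT, and Calcr, the calcitonin receptor, at -1.23, 1.02 and 0.57 (a dimmer Calcr probe gave -0.55). Ghsr, the ghrelin receptor, differed by -1.10 from hypothalamus KO and by -0.91 from hypothalamus WT. Of the receptors for the 4 leading peptides, the MCH receptor Mchr1 differed by 0.22, the orexin receptors Hcrtr1 and Hcrtr2 by -0.19 and 0.37, and the vasopressin receptor Avpr1b by 0.48. The list's median of -0.10 turned to 0.14 under median scaling, with 25 of 36 higher in place of 14. Lepr, the leptin receptor, and Oprm1, the mu opioid receptor, were among 6 that were not well above background on either KO array.

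Transcription factors of the hypothalamus were lower on amygdala KO in 26 of 29 measured, 13 of them at least 2-fold and 10 against both hypothalamus arrays. Of all genes, 4.87% were 2-fold lower against hypothalamus KO and 3.75% against both. The median of these factors was -0.92 against hypothalamus KO and -0.61 against hypothalamus WT, and -0.50 with normexp background correction. Nkx2-1, a homeobox factor needed to form the ventral hypothalamus, read -4.44 on amygdala KO, -1.35 on hypothalamus KO and -1.62 on hypothalamus WT. On the striatum WT and KO arrays Nkx2-1 read -2.13 and -2.16. Isl1, a LIM homeobox factor of arcuate neurons, read -2.47, 0.61 and 0.32, and was also high on the 2 striatum arrays (up to 0.92). The 2 hypothalamus pools differed by 0.27 and 0.29 for these genes, and amygdala KO was 8.50-fold and 8.44-fold below hypothalamus KO.

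Other homeobox and forkhead factors of hypothalamic nuclei lay in the same direction. Lhx5, a LIM homeobox factor, read -2.47 on amygdala KO, 0.34 on hypothalamus KO and -0.15 on hypothalamus WT. Tbx3, a T-box factor of the arcuate nucleus, read -0.97, 1.40 and 1.14. Foxb1, a forkhead factor of the mammillary body, read -3.77, -1.43 and -1.62. All 3 were at least 2-fold lower against both pools. Hmx3, a homeobox factor of the hypothalamus, was not well above background on amygdala KO, so its difference is a bound, taken against the higher of the amygdala array's lowest level well above background (-5.41) and the probe's own reading. Hmx3 was at least 19.6-fold lower than on hypothalamus KO. Sim1, a factor of the paraventricular nucleus, was -0.92 against hypothalamus KO and only -0.34 against hypothalamus WT. Otp, Lmx1a, Foxa1 and Bsx were not well above background on either KO array.

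Other markers of hypothalamic neurons were lower in 25 of 28, 11 at least 2-fold and 9 against both pools (4.87% and 3.75% of all genes). Asb4, an ankyrin repeat gene of energy-regulating hypothalamic neurons, read -2.03 on amygdala KO, 1.83 on hypothalamus KO and 1.42 on hypothalamus WT. Cited1, a transcriptional coactivator, read -0.58, 1.92 and 1.54. Dlk1, an imprinted Delta-like gene, read -1.80, 0.23 and -0.37, and stayed above the other 4 regions, which reached at most -3.49. Nnat, Hap1, Ahi1 and Zcchc12, which are broadly active in hypothalamic neurons, differed by less: -0.76, -0.40, -0.53 and -0.29. Esr1, the estrogen receptor alpha gene known from both regions, read -0.66, -0.47 and -0.23, all above the other 4 regions (-4.68 to -2.17).

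Genes of monoamine neurons were lower in 13 of 16. Of these, 6 were at least 2-fold lower, 5 of them against both pools (4.87% and 3.75% of all genes). Hdc, which makes histamine in the tuberomammillary nucleus, read -2.41 on amygdala KO, 1.17 on hypothalamus KO and 1.29 on hypothalamus WT, a 12.0-fold difference. The striatum arrays (-0.55 on WT, -0.95 on KO) and hippocampus arrays (-0.81 and -0.83) also read above amygdala KO for Hdc. Slc18a2, which loads monoamines into vesicles, read -3.12, -0.92 and -0.95. Th, the rate-limiting enzyme of catecholamine synthesis, read -3.57, -1.40 and -1.94, and Slc6a3, the dopamine transporter, -2.89, -1.12 and -1.18. Ddc, which makes dopamine and serotonin from their precursors, was -1.05 against hypothalamus KO and -0.76 against hypothalamus WT. Tph2, which makes serotonin in brainstem neurons, was well above background on amygdala KO and not on hypothalamus KO, where it was at least 0.88 lower on the log2 scale.

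Pituitary hormone genes were lower on amygdala KO in 8 of 8 measured, with a median of -1.68 against hypothalamus KO and -1.12 against hypothalamus WT. At least 2-fold lower were 6, 4 of them against both pools (4.87% and 3.75% of all genes). Cga, the shared subunit of the glycoprotein hormones, read 0.19 on amygdala KO, 3.73 on hypothalamus KO and 2.77 on hypothalamus WT. Prl, the prolactin gene, read 3.1, 5.80 and 5.10. Gh, the growth hormone gene, read 0.81, 2.77 and 1.21. The hypothalamus pools themselves differed by 1.55 for Gh, so Gh was 2-fold lower against hypothalamus KO (-1.95) and not against hypothalamus WT (-0.40). Amygdala KO also carried some of these hormones: Prl lay above the other 4 regions, which reached at most 0.56, and Cga above theirs (at most -1.49). Others did not stand out. Tshb (-4.74) lay within the range of those regions, which reached -4.54, and Fshb (-3.29) was lowest on amygdala KO of all arrays. Summed over 9 genes, the log2 signal was 4.65 on amygdala KO, 6.79 on hypothalamus KO and 6.21 on hypothalamus WT, with 8 of 9 well above background on each and the pituitary factor Pou1f1 on none of them. What these transcripts contributed to Pomc, which both pituitary and arcuate cells make, was not tested.

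Markers of the ependyma, the ciliated lining of the ventricles, read lower in 10 of 10 measured. At least 2-fold lower were 7, all 7 against both pools (4.87% and 3.75% of all genes). Foxj1, the master factor of motile cilia, read -1.14 on amygdala KO, 0.94 on hypothalamus KO and 0.73 on hypothalamus WT. Dynlrb2, a dynein light chain, read -0.95, 1.32 and 1.19, and Cfap52, a protein of the ciliary axoneme, -2.5, -0.47 and -0.44. The hypothalamus pools differed from each other by at most 0.28 in this list, against a median of -1.84 between amygdala KO and hypothalamus KO. Without the crowded array rows described with the largest rises, 6 ependyma markers were left, all lower, with a median of -1.11. Summed over the list, the log2 signal was 2.32, 3.96 and 3.82, with 10 of 10 well above background on each array. Ttc12, which lies near Il18 on the chromosome and is needed to assemble ciliary dyneins, read -3.57 on amygdala KO, -1.97 on hypothalamus KO and -2.05 on hypothalamus WT, and the 2 hypothalamus genotypes read alike.

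The region before 1 of the 2 RefSeq starts of Tekt1, a tektin of ciliary microtubules that read 0.22 on amygdala KO, 1.57 on hypothalamus KO and 1.51 on hypothalamus WT, is shown because it holds a motif of ciliary genes on both strands. Capitals mark GTTGCC and its reverse GGCAAC, the half-site of the RFX factors that act in ciliated cells.
Tekt1, chr11:72361883-72362032, minus strand, GRCm38.p6: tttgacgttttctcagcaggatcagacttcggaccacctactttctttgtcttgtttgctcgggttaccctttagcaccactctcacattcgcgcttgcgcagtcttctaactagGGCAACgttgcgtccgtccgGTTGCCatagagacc
The same window before the other Tekt1 start does not hold these letters. Of 17 starts of 14 ependyma genes in the table, 4 held the motif on either strand in 150 bases (Dynlrb2, Enkur, Lrrc23 and Tekt1; 23.5% of starts), against 6.64% of all 32851 starts. The motif shares no overlap with TATAAA.

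Choroid plexus and meninges markers also differed between the 2 hypothalamus pools. All 18 choroid plexus markers were lower on amygdala KO, with a median of -1.07 against hypothalamus KO and -2.07 against hypothalamus WT, and the hypothalamus KO pool itself lay 0.98 below the WT pool (-0.98). Ttr, the transthyretin gene that marks choroid plexus epithelium, read -0.02 on amygdala KO, 1.55 on hypothalamus KO and 2.71 on hypothalamus WT. Aqp1, the water channel of that epithelium, read -3.01, -1.55 and -0.30. Summed over the list, the log2 signal was 4.30, 5.35 and 6.01. Meninges and fibroblast markers had a median of 0.06 against hypothalamus KO and -0.71 against hypothalamus WT, so their direction depended on the hypothalamus array. Ptgds, a prostaglandin synthase of the meninges, read 5.83, 5.38 and 6.35. What the amount of these linings contributed to other differences was not tested.

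**Figure D2:**
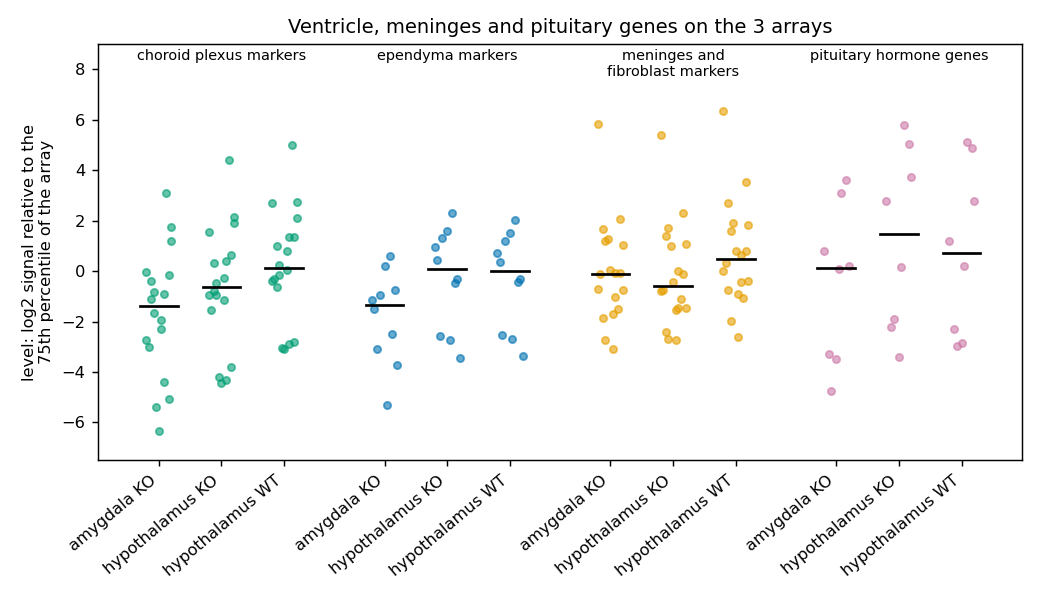
Levels (log2 of the signal over its array's 75th percentile) of measured choroid plexus, ependyma, meninges and pituitary hormone genes on amygdala KO, hypothalamus KO and hypothalamus WT; each point is 1 gene and each bar the median over the genes. Ependyma medians are -1.33, 0.07 and 0.02, so the hypothalamus pools match, while choroid plexus medians step through -1.37, -0.62 and 0.14.

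Among astrocyte markers the largest differences lay in secreted proteins. Itih3, an inter-alpha-trypsin inhibitor chain, read 2.73 on amygdala KO, 5.01 on hypothalamus KO and 4.62 on hypothalamus WT. Agt, angiotensinogen, which astrocytes of the hypothalamus and brainstem secrete, read 3.27, 4.81 and 4.6. They were the only 2 of 19 astrocyte markers at least 2-fold apart (5.68% of all genes were). Both stood above the other 4 regions on amygdala KO too. Gfap and Aqp4, an intermediate filament and a water channel of astrocytes, both differed by 0.00, and the list's median was -0.11. Of 23 myelin markers 21 were lower, the median being -0.41 against hypothalamus KO and -0.22 against hypothalamus WT. Mbp, myelin basic protein, read 5.63, 6.49 and 6.43 (other probes gave -1.15 and 0.14 against hypothalamus KO), and Klk6, a protease of oligodendrocytes, -3.23, -1.61 and -1.5.

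Genes of cortical pyramidal neurons were higher on amygdala KO in 31 of 32 measured, by a median of 0.71 against hypothalamus KO and 0.62 against hypothalamus WT. At this size they mostly stay under the 2-fold rule: 2 of 32 passed it against hypothalamus KO and none against both (0.813% and 0.479% of all genes). Camk2a, the calcium/calmodulin kinase of excitatory synapses, read 5.19 on amygdala KO, 3.92 on hypothalamus KO and 4.23 on hypothalamus WT, a difference of 1.27 and 0.96, while a second, much dimmer Camk2a probe gave -0.42 against hypothalamus KO. Slc17a7, the vesicular glutamate transporter of cortical neurons, read 1.33, 0.52 and 0.53. Tbr1, a T-box factor of glutamatergic projection neurons, read -0.43, -1.32 and -1.61, and Neurod6 -0.25, -1.06 and -1.02. Nrgn, neurogranin of dendritic spines, read 7.35, 6.74 and 6.96. For each of these the 2 hypothalamus pools were nearer to each other than to amygdala KO. The single member in the other direction was Rtn4rl2, at -0.24.

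Telencephalic transcription factors were higher in 31 of 34, with a median of 0.60 against hypothalamus KO and 0.38 against hypothalamus WT. Lmo4, a LIM-only factor of the cortex and amygdala, read 5.19, 4.32 and 4.50. Meis2, a homeobox factor of striatal and central amygdala neurons, read 4.33, 3.47 and 3.49. Neurod1 read -1.99, -3.39 and -2.53, so that its 1.39 against hypothalamus KO shrank to 0.53 against hypothalamus WT. Mef2c, a factor of excitatory synapse maturation, shrank likewise from 0.99 to 0.35. Egr3, an activity-induced zinc finger gene, was the single member 2-fold higher against both pools (1.44 and 1.45), where 0.479% of all genes were. Egr3 was 0.37 with normexp, and its probe lies in the crowded rows described below. The 3 lower members were Zbtb20 (-0.55), Cux1 (-0.29) and Npas4 (-0.01).

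Markers of amygdala nuclei were higher in 19 of 22, with a median of 0.55 against hypothalamus KO and 0.34 against hypothalamus WT. Dkkl1 read 1.05 on amygdala KO, 0.06 on hypothalamus KO and 0.09 on hypothalamus WT. Rspo2, a Wnt agonist of basolateral neurons, read 0.70, 0.10 and -0.03. Prkcd, the protein kinase that marks a group of central amygdala neurons, read -0.83, -0.88 and -0.72 and did not separate the regions. Wfs1, another gene of the central nucleus, read 3.98, 3.57 and 3.59. The largest difference in this list ran the other way: Zfhx3, a zinc finger homeobox factor, read -0.87, 0.26 and 0.00. None of the 22 was 2-fold higher (0.813% of all genes were).

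**Figure D3:**
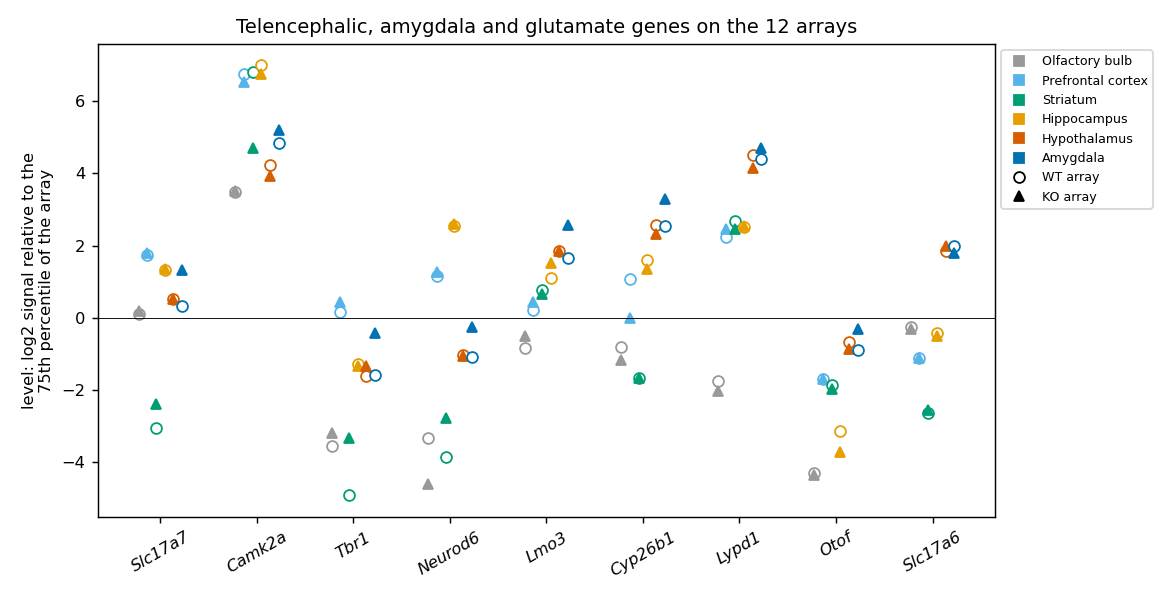
Level of 9 telencephalic, amygdala and glutamate neuron genes (log2 of the signal over its array's 75th percentile) on the 12 arrays, 1 point per array, coloured by region, open circles for WT and triangles for KO, with no error bars because each point is 1 pooled array. Amygdala KO lies above both hypothalamus arrays for every gene shown except Slc17a6, and is the highest of the 12 for Cyp26b1 (3.28), Lmo3 (2.56), Lypd1 (4.70) and Otof (-0.31).

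Genes of calcium-dependent signalling were higher in 33 of 39, by a median of 0.39. Plcb1, a phospholipase C of forebrain neurons, read 1.71 on amygdala KO, 0.63 on hypothalamus KO and 0.56 on hypothalamus WT. It was 2-fold higher against both (1.08 and 1.14). Against hypothalamus KO another Plcb1 probe gave 1.18, and the dimmest gave 0.35. Adcy1, a calcium-stimulated adenylyl cyclase, read 2.22, 1.23 and 1.52, and 2 dimmer Adcy1 probes gave 0.01 and 0.03. Of 18 GABA-A and glycine receptor subunits, 14 were higher, among them Gabrd (0.84) and Gabra4 (0.75), while Gabrq, a subunit enriched in the hypothalamus, was lower (-0.71). Genes of GABA release themselves were alike: Slc32a1, the vesicular GABA transporter, read 6.48, 6.51 and 6.36, and Gad1, which makes GABA, read 3.72, 3.49 and 3.49. Of 21 thalamus markers, 10 were higher and 11 lower (median -0.05). The largest among them was Cbln1, a synaptic organiser, which read 0.68, 3.54 and 3.02.

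**Figure D4:**
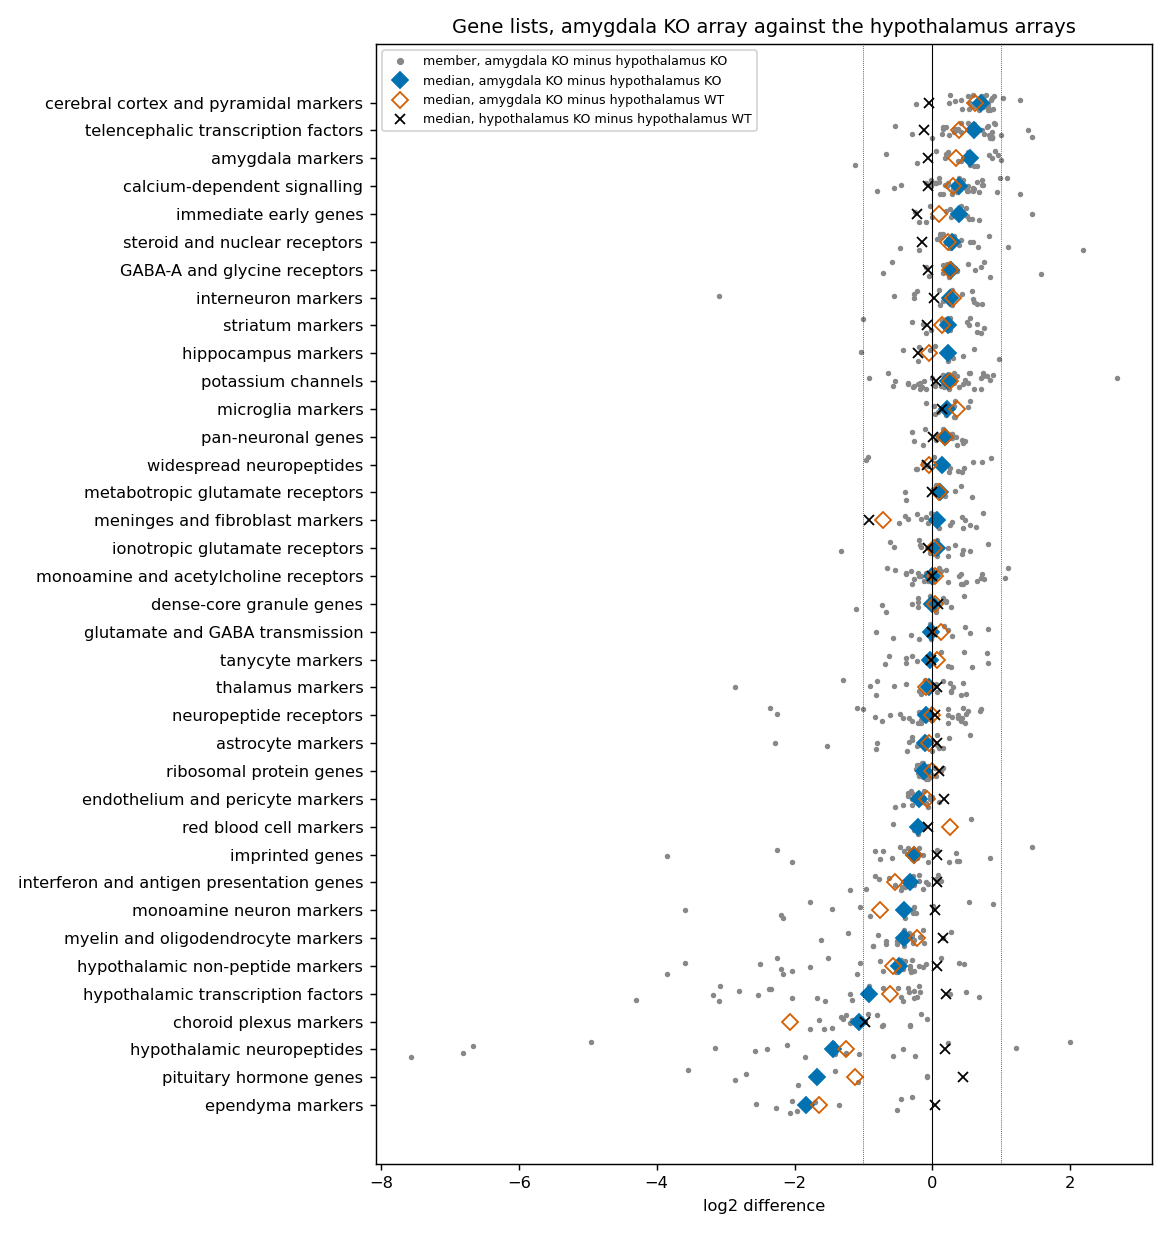
Gene lists ordered by their median difference. The horizontal axis is the log2 difference, each grey point is 1 measured gene (amygdala KO minus hypothalamus KO), filled and open diamonds are list medians against hypothalamus KO and WT, crosses are medians of hypothalamus KO minus WT, and dotted lines mark 2-fold. Pyramidal markers lie highest at 0.71, ependyma (-1.84), pituitary (-1.68) and hypothalamic neuropeptides (-1.44) lowest, and the choroid plexus and meninges crosses lie at -0.98 and -0.92, far from 0.

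The 12 largest falls against hypothalamus KO, among named genes measured on all 3 arrays and 2-fold lower against both pools, were Pmch, Oxt, Hcrt, Avp, Asb4, Hdc, Cga, Cyp2f2, Sytl4, Agrp, Cfap65 and Apobec2. Beside those described, Sytl4, a granule protein that regulates hormone release, read -1.90 on amygdala KO, 1.27 on hypothalamus KO and 0.63 on hypothalamus WT, and lay above the other 4 regions on amygdala KO. Cyp2f2, a cytochrome P450, read -4.46, -1.06 and -1.40, and Cfap65, a ciliary protein, -4.18, -1.05 and -0.93. In all 189 named genes were 2-fold lower than on both pools and measured on all 3 arrays, against 29 higher. Besides Hmx3, large bounds for genes well above background on both hypothalamus arrays and not on amygdala KO were those of Vmn1r83 (at least 26.0-fold), Ferd3l (at least 13.8-fold), Gsc (at least 6.86-fold) and Bpifa1 (at least 6.71-fold). For Vmn1r83 the hypothalamus pools themselves lay 2.19 apart. For Ferd3l they lay 3.66 apart, and the bound against hypothalamus WT was only -0.13 (readings of -5.55 and -5.28). The Vmn1r83 and Ferd3l probes lie in the crowded array rows described with the largest rises.

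The 12 largest rises, chosen in the same way, were Cyp2c23, Vmn1r81, Olfr476, Olfr830, Kcng3, Pikfyve, Tmprss7, Foxp4, Qrfp, Cdh4, Spc24 and Olfr775. Of these 4 are olfactory or vomeronasal receptor genes. Cyp2c23, a cytochrome P450, read -1.26 on amygdala KO, -4.20 on hypothalamus KO and -4.23 on hypothalamus WT, and Kcng3, a modifier subunit of potassium channels, read -1.41, -4.08 and -3.57. All 12 read highest on amygdala KO of the 12 arrays, and the hypothalamus readings were dim. Dimmer second probes, well above background on all 3 arrays, did not show the rise for Olfr775 (-0.56 against 1.76), Cdh4 (-0.09 against 1.80) and Foxp4 (0.25 against 2.09). With normexp, Pikfyve was 0.17, Qrfp 0.92, Tmprss7 0.96 and Olfr775 0.98, all under 2-fold.

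The position of the probe on the array moved with these rises. Rows 286 to 399 of the 532 rows hold 22.0% of the measured genes and 11 of the 12 largest rises, the exception being Spc24. They hold 72 of the 122 genes higher than on both pools (59.0%), which is 1.28% of the genes in these rows against 0.252% elsewhere. Of the lower genes they hold 201 of 954 (21.1%), 3.58% of their genes against 3.79% elsewhere, and 4 of the 12 largest falls (Avp, Asb4, Hdc and Cfap65). The 2 hypothalamus arrays were also 2-fold apart more often there, in 2.60% of genes against 0.887%. Leaving these rows out, 50 genes were higher than on both pools, 17 hypothalamic peptides had a median of -1.44, and 27 pyramidal markers had a median of 0.72, while the ependyma median moved from -1.84 to -1.11. These rows were chosen after the data were seen, and their part in single rises was not tested. Of the 6 largest bounds on the amygdala side, Timd4, Trim80, Psg23, Mstn and Cilp (12.5-fold to 6.42-fold) lie in these rows, and Gfi1, a zinc finger repressor at least 12.9-fold higher, does not.

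**Figure D5:**
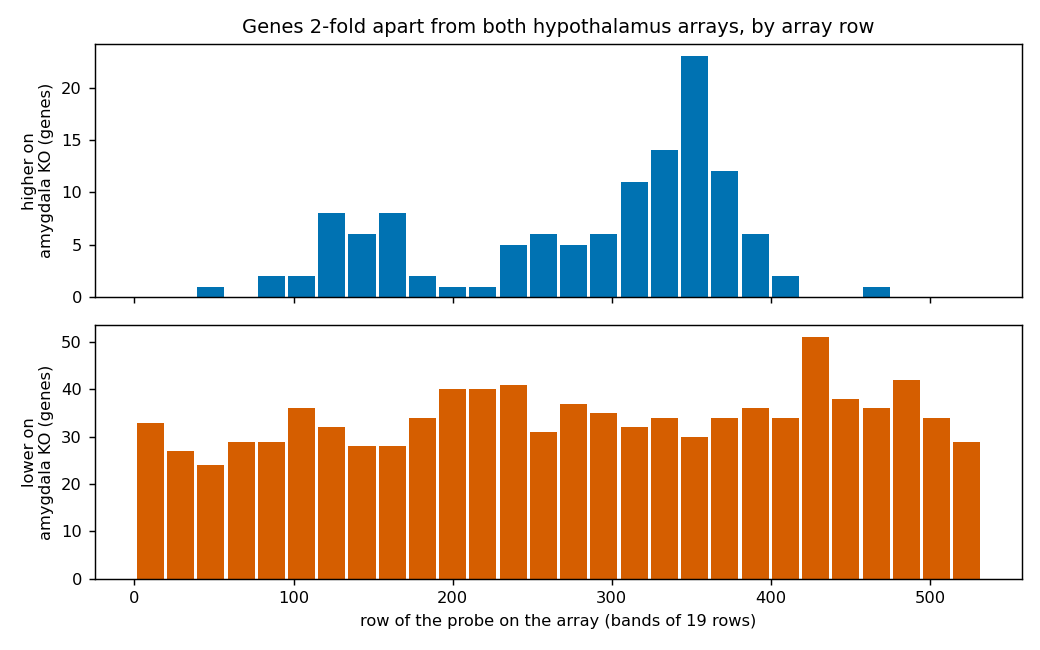
Number of genes higher (top) and lower (bottom) on amygdala KO by at least 2-fold against both hypothalamus arrays, counted by the row of the probe on the array in bands of 19 rows; both axes start at 0 and there are no error bars. Of the 122 higher genes, 72 fall in rows 286 to 399, while the 954 lower genes are spread over all rows.

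Some regional differences rested on the choice of hypothalamus pool. Of the named genes, 166 were 2-fold apart from hypothalamus KO and not, in the same direction, from hypothalamus WT. Prg3, a proteoglycan gene, read -5.08 on amygdala KO, -0.98 on hypothalamus KO and -5.26 on hypothalamus WT, so its -4.10 against the first pool was 0.18 against the second. Rara, a retinoic acid receptor, was not well above background on hypothalamus KO, where the difference was at least 2.19 (0.44 with normexp), and it was 0.84 higher than on hypothalamus WT. Cyp19a1, the aromatase that makes estrogen in amygdala and hypothalamus, read -2.43 on amygdala KO, -3.52 on hypothalamus KO and -2.56 on hypothalamus WT. For Rara and Cyp19a1 the hypothalamus KO pool read below the other 2 arrays.

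The genes 2-fold apart on the KO pair were then read on arrays that their choice had not used. The 282 named genes lower on amygdala KO and well above background on both had a median level of -1.81 on hypothalamus WT, above each array of the other 4 regions (-3.36 to -2.32). The 58 named genes that were higher had a median of -3.92 on hypothalamus WT, only just below the lowest array of those regions (-3.88 to -3.30). All these medians lay nearer to hypothalamus WT than to amygdala KO (-2.51). The striatum medians (-3.85 on WT and -3.88 on KO) lay near those arrays' lowest levels well above background (-3.78 and -4.18), which limits this reading. The medians of these genes on the KO pair itself were set by the choice: -3.11 on amygdala KO and -1.53 on hypothalamus KO for the lower genes, and -2.51 and -4.12 for the higher ones.

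Amygdala and hypothalamus arrays lay on different slides, 1 region per slide, with KO arrays in the same place, so slide and region cannot be told apart. The mice behind each pool are not identified in the labels, and pools of different regions may share mice.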

How the data were processed

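The deposited intensity values come from one-colour Cy3 arrays read with Agilent Feature Extraction, version 9.5.3.1. That software subtracted background and detrended the signal without scaling between arrays, per the file headers. The flags for spots well above background and for outliers were deposited in the same files as other columns. Control and outlier spots were left out, repeated spots of 245 probes were averaged, and log2 of the processed signal minus the 75th percentile of each array was taken (Python 3.11.15, pandas 2.3.3). The 75th percentile was 768 on amygdala KO, 596 on hypothalamus KO and 625 on hypothalamus WT, and 73.8% to 77.9% of their spots were well above background. Of 41174 probes, 22951 (55.7%) were named through accessions in a RefSeq table of GRCm38.p6, which also gave the promoters; the brightest probe stood for a gene. A side not well above background entered as a bound, the higher of that array's lowest well-above-background level and its own reading. Spot errors are the software's and cover no difference between mice.

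Genes were named as the 12 largest rises and falls, the 6 largest bounds a side, up to 4 members of each of 39 lists, 10 set genes and 5 genes apart from hypothalamus KO only; other list members given were picked after their values were seen. The members and lists were chosen with earlier results of these data known. Alternatives were other scalings (limma 3.58.1 in R 4.3.3 for normexp, Python for quantile), filters, probes, sizes and the hypothalamus WT array. Some genes that these rules chose are not reported here.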

Additional observations from a re-analysis of the deposited data

Results flagged for a closer look

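Differences of opposite sign at the 2 genotypes, each at least 2-fold, occurred in 2 named genes. Ferd3l, a basic helix-loop-helix factor, had a bound of -3.79 for amygdala KO minus hypothalamus KO and 4.10 for the array labelled amygdala WT minus hypothalamus WT. It read -5.55 on amygdala KO, -1.62 on hypothalamus KO, -1.18 on the array labelled amygdala WT and -5.28 on hypothalamus WT. The olfactory receptor gene Olfr171 had -3.34 for the first difference and a bound of 1.23 for the second, since it was not well above background on hypothalamus WT. The difference between genotypes was not tested, and the array labelled amygdala WT carried hypothalamic peptides at the level of hypothalamus WT.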

How the results depend on the processing

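Counts here are genes at least 2-fold higher and lower on amygdala KO. With each array centred on its median they were 458 and 635 against hypothalamus KO, 534 and 859 against hypothalamus WT, and 261 and 446 (707 in all) against both, and 13 gene lists in place of 8 had a median at least 0.5 from 0. With quantile normalization the lower count was 603 (893 in all) against hypothalamus KO, the counts were 350 and 847 (1197 in all) against hypothalamus WT, and 186 and 428 (614) against both. With normexp they were 40 and 311 (351), 39 and 435 (474), and 29 and 223 (252); the files hold no mean spot signal, so the median spot signal was used. Requiring both arrays well above background left 116, 118 and 53 higher genes against hypothalamus KO, hypothalamus WT and both. With no filter on dim probes at all, 463, 398 and 202 were higher, and 2249 were apart from hypothalamus KO. At 4-fold, 50 were higher and 144 lower (194). Without rows 286 to 399, a choice made after seeing the data, 88, 94 and 50 were higher. The cause of these shifts was not tested. The 8 lists and the 73 named genes past the size rule kept their direction under every alternative that gave a value (69 genes where both arrays had to be well above background, 46 outside rows 286 to 399). Under normexp 50 of the 73 genes and 7 of the 8 lists stayed past their size rule, and against hypothalamus WT 56 and 6. Medians of 10 lists changed sign under median scaling, among them endothelium (-0.20 to 0.04), ribosomal proteins (-0.12 to 0.12) and neuropeptide receptors (-0.10 to 0.14). No paired analysis was possible because each region and genotype has 1 array, and no replicate could be left out. Signal over background limits the dim genes.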

Other observations

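Microglia markers were slightly higher on amygdala KO in 15 of 16 measured, with a median of 0.21 against hypothalamus KO and 0.35 against hypothalamus WT. Cx3cr1, the fractalkine receptor of microglia, read 0.07 on amygdala KO, -0.47 on hypothalamus KO and -0.75 on hypothalamus WT, and none of the 16 was 2-fold apart. Interferon-responsive and antigen presentation genes were lower in 17 of 20 (median -0.32, and -0.55 against hypothalamus WT), a count that became 12 of 20 under median scaling. Ifit1, an antiviral gene induced by interferon, read -5.10, -3.90 and -3.76.

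Immediate early genes, which neurons switch on with activity, were higher than on hypothalamus KO in 13 of 18 (median 0.38), but their median against hypothalamus WT was 0.10. Fos read -1.07 on amygdala KO, -0.87 on hypothalamus KO and -0.41 on hypothalamus WT, and Arc 2.36, 1.86 and 2.21. Steroid and nuclear receptors were higher in 19 of 21 (median 0.29). Of 25 imprinted genes 18 were lower (median -0.27), which became 13 lower and 12 higher under median scaling (median -0.03). The 3 past 2-fold lower against both pools were Asb4, Calcr and Dlk1 (3.75% of all genes were). Grin3b, an NMDA receptor subunit, read -4.35, -3.03 and -3.12, the largest difference (-1.32) among 16 ionotropic glutamate receptor subunits.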
